A study of Homo sapiens with 8 samples.

Results

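The 10 genes described here encode heat shock chaperones and BAG3, a co-chaperone that works with them. They were chosen by name: HSPA1A, HSPA1B, HSPB1, HSPB8, BAG3, DNAJB1, HSPH1, HSP90AA1, HSPD1 and HSPE1. Every probe annotated to one of them was taken, which gave 16 probes of the 50599 tested and 10 genes of the 21524 with a named probe. The samples were 8 one-colour Agilent arrays of total RNA from NGP, an established human neuroblastoma cell line. Of these, 4 were labelled as mock-infected cells and 4 as cells given CFC1 cDNA. Both groups received lentivirus and puromycin selection and carry the same cell line label. CFC1 encodes Cryptic, a co-receptor for Nodal and related ligands, and the comparison asks how it affects the transcripts of this line. Whether the 4 samples within a group are separate cultures or draws from a single selected population is not stated. The spread that the p-values rest on is that between arrays and could be purely technical.

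Heat shock proteins keep other proteins folded. HSP70 proteins (HSPA genes) bind unfolded stretches and release them in a cycle that J proteins such as DNAJB1 start and HSP110 proteins such as HSPH1 help to complete. HSP90 finishes the folding of kinases and receptors, small heat shock proteins (HSPB genes) hold unfolding proteins in solution, and HSPD1 with its lid HSPE1 folds proteins inside mitochondria. BAG3 joins HSP70 to HSPB8 and directs damaged proteins to autophagy. Heat shock factor HSF1 drives many of these genes by binding heat shock elements, which are alternating inverted repeats of the letters GAA and TTC.

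The promoters of the members were searched for letters that match that element, and the stretches are shown for the members with a match. Whether HSF1 binds these matches was not tested. The RefSeq windows of GRCh38.p14 gave 14 starts for the 10 genes, and the 250 bases before each start were searched. The 2-unit forms were GAANNTTC and TTCNNGAA, each its own reverse complement, and 7 of the 10 genes had at least 1. The 3-unit forms add a further unit in alternation, again after 2 bases of any kind, on either strand. Each contains 2-unit forms, and 2 genes had 1 or more. Counted in windows, 7 of the 14 held a 2-unit and 2 a 3-unit form, where 11.6% and 0.441% of 34943 windows of the same length did. The windows of BAG3, HSPH1 and HSPE1 held neither, which says only that these letters are not in these bases. Capitals mark the matches.
HSPA1A, chr6:31815293-31815542, plus strand: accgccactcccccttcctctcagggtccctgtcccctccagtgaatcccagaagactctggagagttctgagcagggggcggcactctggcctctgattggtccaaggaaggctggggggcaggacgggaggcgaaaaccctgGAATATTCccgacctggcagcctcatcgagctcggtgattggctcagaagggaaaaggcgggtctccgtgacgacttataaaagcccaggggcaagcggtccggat
HSPA1B, chr6:31827488-31827737, plus strand: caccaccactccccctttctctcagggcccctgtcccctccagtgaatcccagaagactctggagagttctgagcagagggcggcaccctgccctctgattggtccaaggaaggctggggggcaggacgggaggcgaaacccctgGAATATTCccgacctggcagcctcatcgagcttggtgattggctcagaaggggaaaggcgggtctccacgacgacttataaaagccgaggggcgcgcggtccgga
HSPB1, chr7:76302471-76302518, plus strand: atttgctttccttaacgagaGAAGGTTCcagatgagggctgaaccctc
HSPB8, chr12:119178823-119178870, plus strand: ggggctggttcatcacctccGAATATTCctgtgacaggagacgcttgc
DNAJB1, chr19:14518417-14518494, minus strand: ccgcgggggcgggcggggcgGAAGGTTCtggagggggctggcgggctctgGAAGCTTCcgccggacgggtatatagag
HSP90AA1, chr14:102087085-102087152, minus strand: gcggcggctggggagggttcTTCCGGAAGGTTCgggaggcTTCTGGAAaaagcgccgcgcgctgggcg
HSPD1, chr2:197500048-197500090, minus strand: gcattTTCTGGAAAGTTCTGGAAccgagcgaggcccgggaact

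Values in the deposited table are on a logarithmic scale read here as log2, and each probe is set against an unstated baseline. They give differences between arrays and no level of expression, so the labelled cell type could not be checked by the presence of its markers and no gene is set against another by level. If the logarithm were natural, each log2 difference would be 1.44 times larger. Array medians ran from -0.145 to 0.138. The single probe of CFC1 gave 0.474, 1.101, 0.116 and -0.027 in mock replicates 1 to 4 and 0.055, -0.688, -0.593 and -0.296 in the arrays labelled CFC1. The transduced gene was thus not higher in the arrays labelled CFC1 (difference -0.80, limma adjusted p = 0.0546). The position of its probe relative to the transduced cDNA was not determined. The second group is therefore called the arrays labelled CFC1, and every direction below rests on the labels.

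BAG3, HSPB1, HSPE1, HSPD1 and HSPH1 were higher in the arrays labelled CFC1, and HSPA1B was lower. HSPA1A, HSPB8, DNAJB1 and HSP90AA1 did not pass the test. In bulk RNA, a lower value in every cell and fewer cells with the transcript cannot be told apart. In probes, 10 of 16 passed an adjusted p of 0.05 in limma, 9 higher and 1 lower, where 42.1% of all probes passed, 20.0% of all probes being higher in the arrays labelled CFC1 and 22.1% lower. Among probes with a gene name 53.6% passed. In gene means 6 of the 10 genes passed, where 57.9% of all genes did. The share of members that passed is thus near that of all genes, and the description below is of their directions and sizes. The median difference was 0.40 over the 16 probes and -0.13 over all probes, and 0.20 over the 10 gene means and -0.09 over all genes. In 10 of the 16 probes the groups did not overlap, where 42.6% of all probes and 54.7% of the named ones did not. At least 2-fold differences among those that passed were found for 5 member probes, where 15.6% of all probes had one. Of these 5, 3 are probes of HSPB1, and by gene means 3 of the 10 genes had one, where 18.7% of all genes did.

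**Figure D1:**
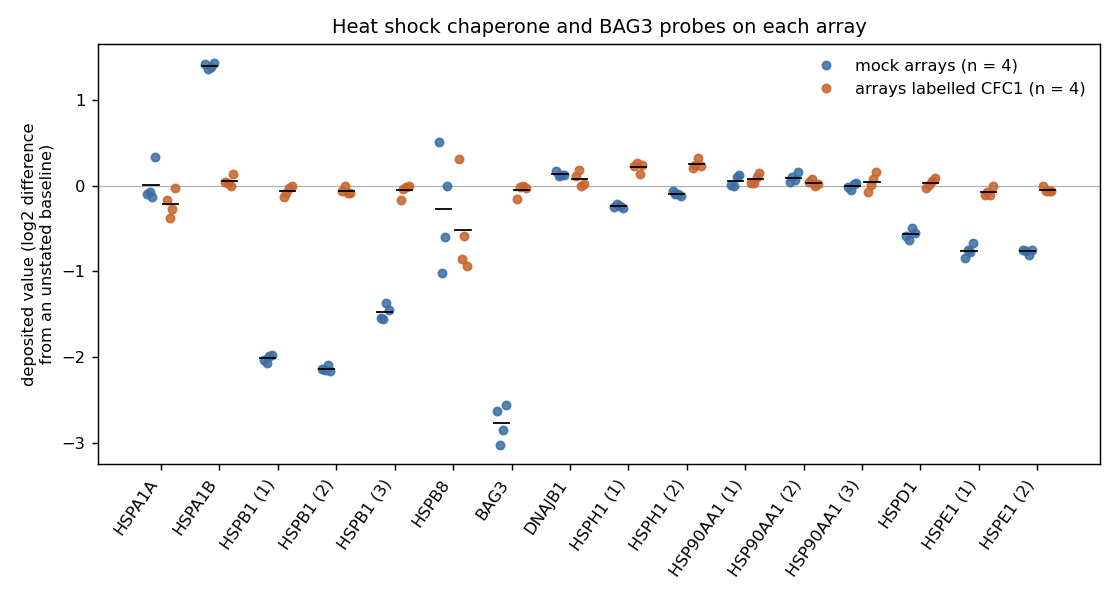
Deposited values (log2 difference from an unstated baseline, vertical axis) of the 16 probes on the 4 mock arrays (blue) and the 4 arrays labelled CFC1 (orange). Black bars are group means, and numbers in brackets tell probes of 1 gene apart. The groups lie farthest apart for BAG3, whose mock arrays lie from -3.032 to -2.566.

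BAG3 showed the largest difference of the members. Its probe gave -2.629, -3.032, -2.849 and -2.566 in mock replicates 1 to 4. The arrays labelled CFC1 gave -0.158, -0.013, 0.000 and -0.021, so that all 4 lay well above every mock array. BAG3 is the HSP70 nucleotide exchange factor of the BAG family that links HSP70 to small heat shock proteins. The difference was 2.72 (SE 0.109, 95% interval 2.46 to 2.98, n = 4 per group, limma adjusted p = 6.21e-07), or 6.59-fold. After quantile normalization it was 1.96. The arrays labelled CFC1 lie at the baseline, which does not show which group changed.

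The small heat shock proteins differed from each other. HSPB1 (HSP27), a small chaperone that also binds actin filaments, was measured by 3 probes. Its first probe gave -2.034, -2.074, -1.987 and -1.972 in the mock arrays and -0.134, -0.086, -0.028 and 0.000 in the arrays labelled CFC1. The groups did not overlap in any of the 3 probes. The differences were 1.95 (95% interval 1.84 to 2.07) for the first probe, 2.08 (1.98 to 2.18) for the second and 1.42 (1.28 to 1.57) for the third, all with a limma adjusted p of 9.92e-07 or less. In fold terms these are 3.88, 4.22 and 2.68. After quantile normalization the differences were 1.47, 1.54 and 1.11 in the same order, each below its interval in the main scaling. The interval of the third probe does not reach those of the others, although all 3 are annotated to the same transcript record. HSPB8, the small heat shock protein that binds BAG3, gave 0.509, -1.020, -0.595 and 0.000 in the mock arrays and 0.315, -0.857, -0.587 and -0.940 in the arrays labelled CFC1. Both groups ranged widely and overlapped, with replicate 1 the highest in each. The difference was -0.24 (95% interval -1.19 to 0.71, limma adjusted p = 0.657). Without 1 array it ran from -0.52 (without replicate 1 of the arrays labelled CFC1) to 0.02 (without mock replicate 1). The pooled SD of 0.625 lay at the 87.5th percentile of all probes, and the interval takes in a fall of 2-fold.

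The 2 stress-inducible HSP70 genes, HSPA1A and HSPA1B, gave unlike values. They lie next to each other on chromosome 6, encode nearly the same protein, and are 94.4% identical over 249 aligned bases of the promoters shown above. The HSPA1B probe gave 1.427, 1.370, 1.392 and 1.434 in the mock arrays. The arrays labelled CFC1 gave 0.049, 0.036, 0.000 and 0.137, and all 4 lay below every mock array. The difference was -1.35 (SE 0.047, 95% interval -1.46 to -1.24, limma adjusted p = 2.92e-07), or 2.55-fold lower. After quantile normalization it was -0.89 (adjusted p = 3.15e-05). The HSPA1A probe gave -0.100, -0.072, -0.128 and 0.341 in the mock arrays and -0.170, -0.378, -0.275 and -0.021 in the arrays labelled CFC1. The groups overlapped through 1 array of the second group, and mock replicate 4 stood above the other mock arrays. The difference was -0.22 (95% interval -0.52 to 0.08, limma adjusted p = 0.235), which leaves out a fall as large as that of the HSPA1B probe. Without mock replicate 4 it was -0.11, and with the arrays set to the E1A control spots -0.12. Transcripts of near-identical genes can bind each other's probes, so the separate values of these 2 genes are uncertain. HSPA1L, the third HSP70 gene beside them and the neighbour of HSPA1A, was higher by 2.17.

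The partners of HSP70 differed as well. HSPH1, an HSP110 protein that exchanges the nucleotide of HSP70, gave -0.252, -0.212, -0.235 and -0.257 in the mock arrays with its first probe. The arrays labelled CFC1 gave 0.236, 0.270, 0.134 and 0.241, above every mock array, and the second probe also had no overlap. The differences were 0.46 (95% interval 0.35 to 0.57, limma adjusted p = 9.49e-05) and 0.34 (0.24 to 0.45, adjusted p = 0.00037), or 1.38-fold and 1.27-fold. After quantile normalization the second probe stood at 0.56. DNAJB1 (HSP40), a J protein that hands unfolded proteins to HSP70, gave 0.168, 0.115, 0.121 and 0.130 in the mock arrays and 0.114, 0.185, 0.000 and 0.022 in the arrays labelled CFC1. Its groups overlapped, and the difference was -0.05 (95% interval -0.18 to 0.07, limma adjusted p = 0.470). That interval leaves out changes above 1.13-fold in the main scaling only, and the sign turned under 2 other scalings without a call. After quantile normalization the difference was 0.135, outside that interval (limma adjusted p = 0.264). With the arrays set to the E1A control spots it was 0.049 (limma adjusted p = 0.739).

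HSP90AA1, the stress-inducible cytosolic HSP90, stood close to 0 in both groups. Over its 3 probes the 8 arrays ranged from -0.069 to 0.160. The groups overlapped in every probe. The differences were 0.02, -0.06 and 0.05, with limma adjusted p-values from 0.387 to 0.807, and the 3 intervals together ran from -0.16 to 0.19. The bound farthest from 0 is 1.14-fold. It holds for the main scaling: after quantile normalization the differences, in the same order, were 0.196, 0.089 and 0.188, of which the first and last lie beyond it, and none passed (limma adjusted p = 0.0826, 0.281 and 0.202). With the arrays set to the E1A control spots the mean of the 3 probes differed by 0.10 and passed (limma adjusted p = 0.0346). Of its 2 promoter windows, the one shown above holds a 3-unit form.

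The mitochondrial pair HSPD1 and HSPE1 was higher in the arrays labelled CFC1. HSPD1 (HSP60), the barrel of the mitochondrial chaperonin, gave -0.590, -0.632, -0.491 and -0.548 in the mock arrays and -0.024, 0.012, 0.062 and 0.087 in the arrays labelled CFC1. The difference was 0.60 (95% interval 0.48 to 0.72, limma adjusted p = 3.60e-05), or 1.51-fold. HSPE1 (HSP10), its lid, gave -0.845, -0.746, -0.769 and -0.666 in the mock arrays with the first probe and -0.107, -0.076, -0.109 and 0.000 in the arrays labelled CFC1. The groups did not overlap in the probe of HSPD1 or in either probe of HSPE1. The differences were 0.68 (0.56 to 0.81) and 0.72 (0.63 to 0.82) for the probes of HSPE1, with limma adjusted p-values of 2.55e-05 and 3.59e-06. These genes lie head to head. Of the 2 promoter windows of HSPD1, 1 shares 204 of its 300 bases with that of HSPE1 and holds no element, and the window shown above is the other. Both genes have processed copies elsewhere in the genome, and which of these the probes could also detect was not determined.

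**Figure D2:**
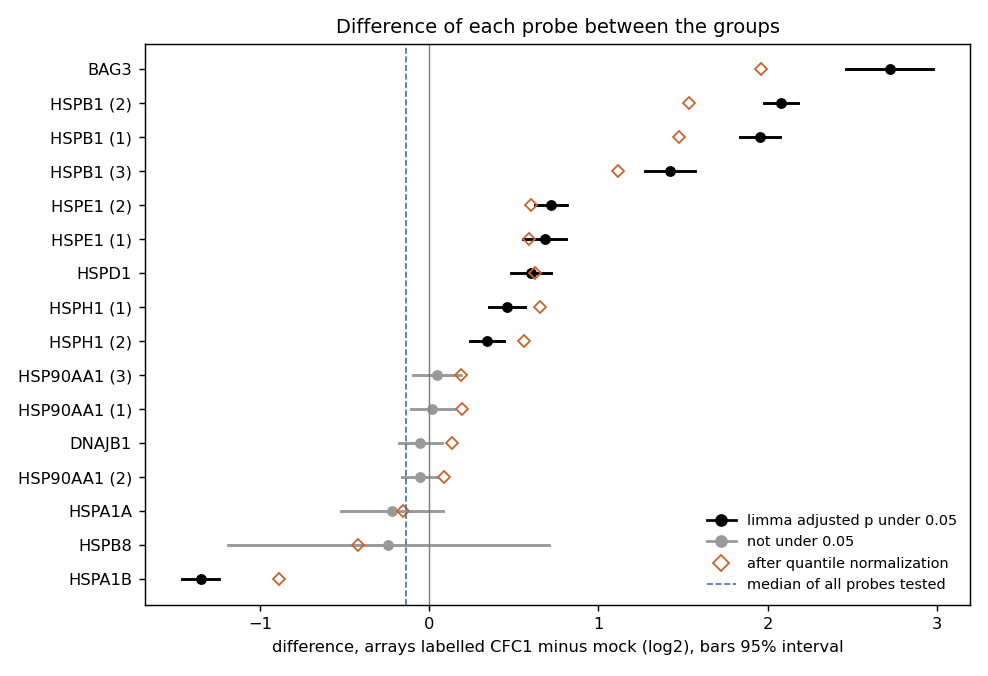
Difference between the arrays labelled CFC1 and the mock arrays (log2, horizontal axis) for each probe, with its 95% interval. Black points passed a limma adjusted p of 0.05 and grey points did not, open diamonds are the values after quantile normalization, and the dashed line is the median of all probes. The 9 probes that were higher run from 0.34 to 2.72 and HSPA1B stands at -1.35, and quantile normalization keeps the sign of these 10.

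Members that work together or share a sequence were also set against each other within each array, for 3 pairs. In the mock arrays HSPD1 minus HSPE1 had a mean of 0.196 ± 0.075 (SD, n = 4). In the arrays labelled CFC1 it was 0.093 ± 0.050 (SD, n = 4). The difference was -0.10 (95% interval -0.21 to 0.01), with an exact two-sided permutation p of 0.057 (also 0.057 adjusted over the 3 pairs), where 70 arrangements allow 0.029 at the least. It thus missed the threshold, and the interval leaves out a gap of 2-fold between the changes of the 2 genes. Without mock replicate 2 it was -0.128 (exact p = 0.029), and after quantile normalization 0.03 (exact p = 0.657). HSPA1A minus HSPA1B averaged -1.395 ± 0.205 in the mock arrays and -0.267 ± 0.109 in the arrays labelled CFC1, and the groups did not overlap. The difference of 1.13 (95% interval 0.84 to 1.41) had an exact permutation p of 0.029, the smallest possible, and 0.043 adjusted over the pairs. After quantile normalization it was 0.735 (exact p = 0.029). The HSPA1B difference enters this value and was known when the pair was chosen, so the p is no support independent of it. The adjusted p is under 0.05 only because the p of BAG3 minus HSPB8 is counted among the 3 pairs. BAG3 minus HSPB8 averaged -2.493 ± 0.486 and 0.469 ± 0.644, a difference of 2.96 (95% interval 1.97 to 3.95). Its exact permutation p was 0.029, the smallest possible, and 0.043 adjusted over the 3 pairs. The difference of BAG3 was known when the pair was chosen, so this pair is given as a description and its p is no support.

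**Figure D3:**
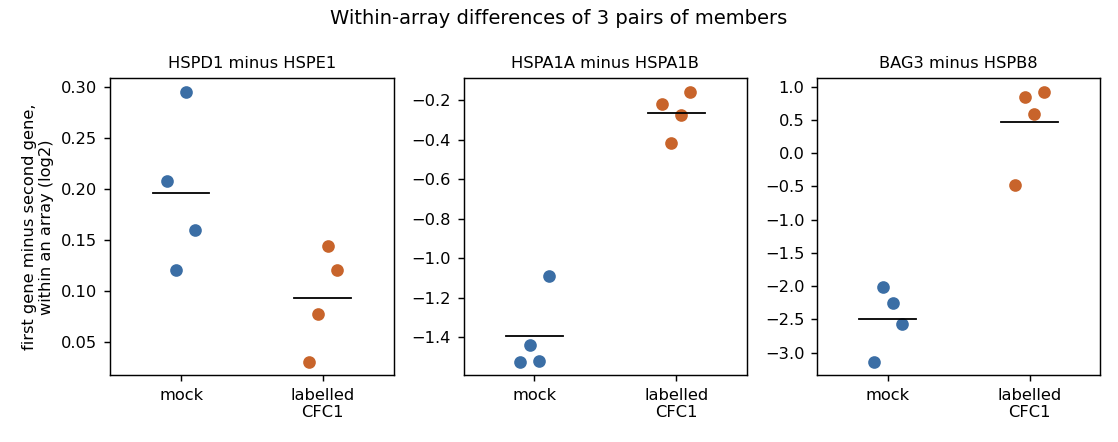
Difference between 2 genes within 1 array (log2, vertical axis, its own scale in each panel) for 3 pairs of members, as points for the 4 mock arrays (blue) and the 4 arrays labelled CFC1 (orange) with group means as bars. The groups overlap for HSPD1 minus HSPE1, with means of 0.196 and 0.093, and do not overlap for the other pairs.

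Within a group most member probes varied little, and those of HSPB8, HSPA1A and BAG3 varied more. The pooled SD of the 16 probes ran from 0.028 for the second HSPE1 probe to 0.625 for HSPB8, and 13 of them lay below 0.08. Those of HSPA1A (0.19) and BAG3 (0.16) lay at the 48.6th and 39.6th percentiles of all probes. Mock replicate 4 stood above its group mean in 8 of 10 genes (median deviation 0.041), and mock replicate 2 stood below it in 8 (median deviation -0.043). Over all probes the array median was highest in mock replicate 4 (0.138) and lowest in mock replicate 3 (-0.145). In the arrays labelled CFC1, replicate 4 stood above the group mean in 7 genes. HSPB8 had the largest single deviations, 0.786 in mock replicate 1 and 0.833 in replicate 1 of the arrays labelled CFC1.

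The genes whose values over the 8 arrays lay nearest to BAG3, by root mean square difference over all 21524 genes without the members, were ZNF721 (0.114), ZNF837 (0.115) and PPP1R3F (0.116). Their differences were 2.78, 2.77 and 2.66 on the log2 scale. The measure follows the group difference for the most part, since the arrays labelled CFC1 stood near 0 in each.

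Other chaperone genes were counted by gene means in 9 lists, where 57.9% of all genes passed, 29.7% higher and 28.2% lower. Sizes are of the main scaling unless another is named. Of 5 heat shock factors and their binding proteins, 1 was higher and 1 lower (median -0.10, beside -0.09 over all genes). HSBP1L1, similar to the HSF1-binding protein HSBP1, was higher by 3.30 (by 2.33 after quantile normalization), with mock arrays from -4.485 to -2.402. HSBP1, which restrains HSF1, fell by 0.68 (by 0.44 after quantile normalization). HSF1 itself, singled out after its values were seen, stood at 0.02. Of 10 other HSP70 family genes, 6 were higher and 3 lower (median 0.66). HSPA4L, an HSP110 protein, was higher by 2.35 and HSPA1L by 2.17, and HSPA2, an HSP70 known from the germ line, fell by 2.98. The number of lower calls was 2 after quantile normalization and 1 with the arrays centred on their median or set to the E1A spots. Of 7 other small heat shock proteins, 1 was lower (median 0.08), HSPB9 at -0.39, and that call was lost after quantile normalization (-0.10, limma adjusted p = 0.456).

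Cytosolic co-chaperones moved in both directions in the main scaling, and the number of lower calls depended on the scaling. Of 11 other J proteins, 5 were higher and 4 lower (median -0.03), with DNAJB4 at 0.99, DNAJC5, a synaptic vesicle chaperone, at 0.70 and DNAJC12 at -1.14 (-0.71 after quantile normalization, where 2 of the list were called lower). Of 10 genes comprising HSP90AB1 and HSP90 co-chaperones, 4 were higher and 2 lower (median 0.01). The immunophilins PPID and FKBP4 were higher by 1.19 and 1.14 and CHORDC1, an HSP90-binding protein, by 0.86. In this list 1 gene was called lower after quantile normalization or median centring and 0 with the E1A spots. Of 10 genes of the BAG family and of the autophagy that BAG3 serves, 6 were higher and 3 lower (median 0.34). BAG2 was higher by 1.22, SQSTM1 (p62), the autophagy receptor for ubiquitinated cargo, by 0.83, and STUB1 (CHIP), the ubiquitin ligase of HSP70 clients, by 0.70. None of the 3 lower calls in that list held with the arrays centred on their median, set to the E1A spots or quantile normalized.

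Mitochondrial chaperones and subunits of the cytosolic chaperonin also moved in both directions. Chaperones of the endoplasmic reticulum did so in the main scaling only. Of 10 mitochondrial chaperones and proteases other than HSPD1 and HSPE1, 7 were higher and 2 lower (median 0.27), with GRPEL1, the nucleotide exchange factor of mitochondrial HSP70, at 1.85, DNAJA3 at 0.75 and HSCB at -0.48. After quantile normalization GRPEL1 stood at 1.385 and HSCB at -0.28. With median centring 5 of the list were higher and 1 lower. The 2 probes of HSCB stood at -0.86 and -0.10, and 1 of them passed. Of 8 subunits of TRiC, the chaperonin that folds actin and tubulin, 4 were higher and 2 lower (median 0.30), with TCP1 at 0.75, CCT4 at 0.69 and CCT2 at -1.79. After quantile normalization these stood at 0.99, 0.60 and -1.26. Of 10 chaperones of the endoplasmic reticulum, 6 were higher and 3 lower (median 0.46), with HYOU1 at 0.82, PDIA4, a disulfide isomerase, at 0.82 and DNAJB11 at 0.63. No lower call in that list held under any of the 3 other scalings. In all genes 29.7% were higher and 28.2% lower.

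**Figure D4:**
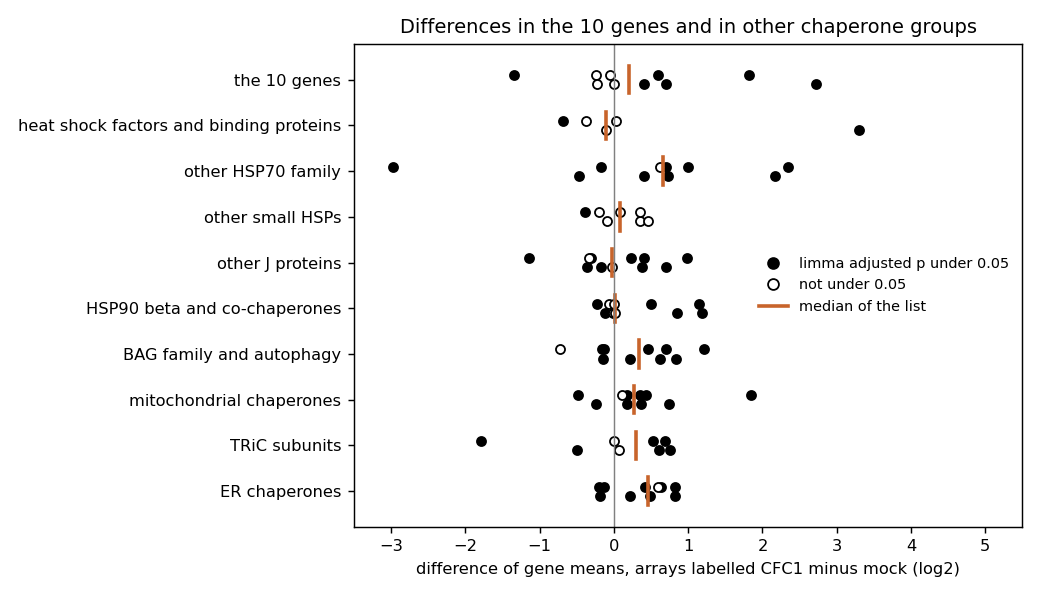
Difference of gene means between the arrays labelled CFC1 and the mock arrays (log2, horizontal axis) for the 10 genes and for 9 other chaperone lists. Filled points passed a limma adjusted p of 0.05, open points did not, and orange bars are list medians, which run from -0.10 to 0.66.

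Marker lists of cell types were counted in the same way, where 57.9% of all genes passed, 29.7% higher and 28.2% lower. Of 7 measured neuroblastoma markers 5 were lower (median -0.41), with ISL1 at -2.18, CHGA at -1.14 and DBH at -0.62. After quantile normalization ISL1 stood at -1.56, CHGA at -0.72 and DBH at -0.31. Of 8 fibroblast markers 6 were lower and 1 higher (median -0.79), with PDGFRA at -2.78, COL3A1 at -1.88 and COL1A1 at -1.44. After quantile normalization PDGFRA stood at -2.21, COL3A1 at -1.25 and COL1A1 at -0.98. Of 4 Schwann cell markers 3 were lower, S100B at -1.35, FABP7 at -1.17 and SOX10 at -0.88, and of 5 endothelial markers 2, KDR at -3.08 and TEK at -2.89. The probes of S100B stood at -2.55 and -0.15. Of 4 immune markers CD14 was higher by 1.16 and CD68 was lower at -0.42, a call lost under 10 of 15 alternatives and in the fit of single probes. The call of FABP7 was lost under 8 of 15. The part of these differences in those of the chaperones was not tested.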

How the data were processed

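Per the labels' protocols, total RNA of 8 NGP samples was labelled with Cyanine3 for one-colour Agilent arrays. The authors deposited log2 values (base read from the values) relative to an unstated baseline. Feature extraction and scaling are not given in the sources used. The table holds no background flags, and the number of arrays sets the precision.

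Control spots (140) were dropped, which left 50599 probes. A single gene symbol was listed for 31993 of these, several for none, and 18606 stay unnamed. Symbols were updated through RefSeq (GRCh38.p14). Probes were compared with limma 3.58.1 in R 4.3.3 (lmFit, eBayes, 8 arrays, no replicate block), with two-sided Benjamini-Hochberg p-values over all probes and a threshold of 0.05. Lists were counted on gene means, adjusted over 21524 genes, and 6 genes on the lists are not analysed here. Named are all members, CFC1, up to 3 called genes per list with the largest difference, and the 3 genes nearest to BAG3. Members, lists and pairs were chosen with earlier results of these data known.

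The model was tested on simulated data, and its criterion for recovery was narrowed to probes of low spread after a first version was not met. Alternatives were a replicate block, quantile normalization, median centring, scaling to 10 E1A control spots, array weights, a variance trend, plain variances, gene means, and each array left out in turn. Python 3.11.15, numpy 2.4.6, pandas 2.3.3 and matplotlib 3.10.9 were used.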

Additional observations from a re-analysis of the deposited data

Results flagged for a closer look

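In 5 of 108 groups of 4 arrays, over the member probes, CFC1 and the named list genes, 1 array stood apart from the other 3 by more than Dixon's 95% critical value. Chance flags about 1 in 20 such groups. HSPA1A in mock replicate 4 stood at 0.341, where the other mock arrays lay from -0.128 to -0.072. BAG3 in replicate 1 of the arrays labelled CFC1 stood at -0.158, where the others lay from -0.021 to 0.000, a gap that is small beside the difference of 2.72 between the groups. The second HSPE1 probe in the same array stood at 0.000, where the others lay from -0.065 to -0.055. HSPA2 in replicate 2 of the arrays labelled CFC1 stood at -0.735, and COL3A1 in mock replicate 4 at 2.169.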

How the results depend on the processing

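All 10 called member probes kept their call and direction under every alternative, and no other member probe gained one. Counted as gene means, 6 of 10 members passed, and 7 with the arrays set to the E1A control spots, where HSP90AA1 passed too. Sign changes among the member probes concerned uncalled values: with the E1A control spots DNAJB1 stood at 0.049 and the second HSP90AA1 probe at 0.045, after quantile normalization at 0.135 and 0.089, and the mean of the HSP90AA1 probes was 0.003. Leaving out 1 array moved the first HSP90AA1 probe between -0.004 and 0.042, HSPB8 between -0.519 and 0.021, and HSF1 between -0.104 and 0.124. HSPD1 minus HSPE1 turned to 0.03 after quantile normalization and ran from -0.128 to -0.070 without 1 array. CFC1 passed with array weights (-0.805, limma adjusted p = 0.0460) and without mock replicate 4 or CFC1 replicate 1. Called probes numbered 21289, 18115 to 21980 under the other settings and 20144 to 20472 without 1 array. The median difference of all probes was -0.13, and -0.03 with the E1A spots, the largest shift by scaling.

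Same-numbered arrays deviated together with correlations of 0.095 to 0.197 over probes, and each mock array correlated best with its own number, a hint from the data and not from the design. With the replicate number as a block, 10 member probes and 21980 probes passed. For the pairs, the 4 same-numbered differences gave 1.129 for HSPA1A minus HSPA1B and 2.962 for BAG3 minus HSPB8, each with an exact sign-flip p of 0.125, the smallest that 4 differences allow, so that this test could not pass.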
